A study of Mus musculus with 12 samples.

Results

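Spi1, Cebpa, Cebpb, Cebpd, Maf, Mitf, Bhlhe40, Bhlhe41 and Runx1 are the genes of 9 transcription factors that set up or maintain the macrophage lineage, and they are described here across the 4 genotype and stimulus groups of a microarray study of mouse bone marrow-derived macrophages (BMDMs). They were chosen by name: every probe set annotated to only that gene symbol was taken, which gave 23 of the 45037 probe sets other than controls and 9 of the 18193 genes tested. Where several probe sets read a gene, the brightest on average over all arrays stands for it, and the others are given beside it.

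The study compared ΔTrspM BMDMs (Trspfl/fl-LysM-Cre+/-), which lack the selenocysteine tRNA gene Trsp that every selenoprotein needs, with control BMDMs (Trspfl/fl-LysM-Cre-/-), each after 4 h of lipopolysaccharide (LPS, a ligand of toll-like receptor 4) or unstimulated. There were 3 arrays in each group and 12 in all. Both genotypes carry the floxed Trsp alleles, and only ΔTrspM cells carry Cre, which the promoter of the lysozyme gene Lyz2 drives in myeloid cells. The marrow came from female mice of the C57BL/6 strain and was grown for 7 days with M-CSF, the growth factor of macrophages. The labels call the arrays biological replicates without naming the animals, no LPS dose was found for the arrays, and Trsp itself was not analysed here.

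A macrophage keeps its identity through a small set of DNA-binding proteins. PU.1, the product of Spi1, is an ETS factor that opens macrophage enhancers together with C/EBP and RUNX proteins, and the C/EBP family divides the work between a factor of myeloid commitment (C/EBPα, from Cebpa) and factors of the inflammatory response (C/EBPβ and C/EBPδ, from Cebpb and Cebpd). MAF helps to keep mature macrophages out of the cell cycle and activates Il10, MITF belongs to the family that controls lysosomal and osteoclast genes, BHLHE40 and BHLHE41 are E-box repressors that support self-renewal of resident macrophages, and RUNX1 is required for definitive haematopoiesis.

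Promoter sequences were taken from RefSeq (build GRCm38.p6) for 5 of the 9 genes, with 3 start sites for Mitf and 2 for Runx1, and those of Spi1, Cebpd, Maf and Bhlhe40 were not analysed here. Cebpa and Cebpb are printed in full because both changed after LPS in both genotypes but in opposite directions. Each run is the 250 bases before the start site, on the plus strand at chr7:35119043-35119292 for Cebpa and at chr2:167688665-167688914 for Cebpb, and positions are counted back from the start site. Capitals mark TTGCGC, a C/EBP half-site, in Cebpa and TGACG, the half-site of CREB-family factors, or its reverse complement in Cebpb.
Cebpa: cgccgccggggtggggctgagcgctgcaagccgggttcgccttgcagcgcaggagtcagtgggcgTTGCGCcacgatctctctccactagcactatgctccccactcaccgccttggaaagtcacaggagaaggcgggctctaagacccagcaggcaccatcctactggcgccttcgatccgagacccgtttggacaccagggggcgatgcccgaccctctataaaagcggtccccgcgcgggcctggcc
Cebpb: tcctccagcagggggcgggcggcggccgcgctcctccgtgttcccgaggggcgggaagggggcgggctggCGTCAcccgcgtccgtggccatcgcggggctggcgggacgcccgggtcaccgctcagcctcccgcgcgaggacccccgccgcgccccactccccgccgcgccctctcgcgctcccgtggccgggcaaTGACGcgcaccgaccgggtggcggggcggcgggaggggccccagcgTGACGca
Both strands of every window were searched. TTGCGC lies at -185 to -180 of Cebpa, and 5.34% of the 32851 promoter windows of the same length hold it. TGACG lies at -53 to -49 and at -7 to -3 of Cebpb, and on the other strand at -180 to -176, while 17.8% of all windows hold at least 1 match. The E-box CACGTG, the site that BHLHE40, BHLHE41, MITF and the clock factors share, was found in Bhlhe41 and at the upstream start site of Runx1, and 6.02% of all windows hold it. The 40 bases around each are shown with the E-box in capitals, at chr6:145865551-145865590 and chr16:92826123-92826162, both on the minus strand.
Bhlhe41: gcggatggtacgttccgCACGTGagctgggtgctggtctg
Runx1: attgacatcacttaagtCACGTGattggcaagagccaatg
These E-boxes stand at -153 to -148 of Bhlhe41 and at -71 to -66 of Runx1. Of the other motifs searched, the RUNX core TGTGGT (14% of all windows) and the half-site TGCTGA of MAF proteins (16.1%) each had a match at the first start site of Mitf, TGCTGA had 1 more at the second, and the PU.1 core GAGGAA (23.3%) had 1 at the downstream start site of Runx1. TGACG also matched on both strands at the third start site of Mitf, where the matches overlap. A match describes the letters of a window and was not tested as a binding site.

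Signals are given as log2 of the quantile-normalized signal plus 16, so that the lowest possible value is 4, and differences as log2 fold changes on that scale. The mean deposited signal of an array lay between 492 and 861 on 11 of the arrays and was 199.7 on replicate 2 of LPS-stimulated ΔTrspM BMDMs, where 47.7% of probe sets were below a signal of 16 (16.1% to 28.8% on the others). Values without this array are given beside the results it moved most. The 3′ to 5′ ratio of the actin control probe sets, a sign of RNA quality, was 1.07 to 1.24 on ΔTrspM arrays and 0.881 to 1.17 on control arrays, higher in ΔTrspM in 6 of 6 same-numbered pairs. The same ratio for Gapdh was 0.679 to 0.954 on ΔTrspM arrays and 0.830 to 0.884 on control arrays. Its direction differed between same-numbered pairs. All 8 macrophage markers (Csf1r, Adgre1, Cd68, Itgam, Mertk, Fcgr1, Lyz2 and Cd14) had a mean of at least 8, while the markers of mast cells, lymphoid cells and melanocytes, cell types in which some of these factors also act, had no gene that high. Osteoclast markers reached it for 3 of 5 genes, and 2 of the 5, Acp5 and Calcr, rose with LPS in each genotype, with summed levels of 12.38 to 12.60 with LPS and 12.14 to 12.45 without in ΔTrspM BMDMs, and 12.28 to 12.95 with LPS and 11.96 to 12.76 without in controls. None of 4 dendritic cell markers reached it, but Ccr7 rose in each genotype and Zbtb46 in controls, with summed levels of 8.52 to 9.02 with LPS and 6.89 to 7.18 without in ΔTrspM BMDMs, and 8.06 to 8.43 with LPS and 6.42 to 7.12 without in controls. Neutrophil markers reached that mean for 3 of 6 genes and stromal markers for 5 of 7, and 1 of each list, Camp and Pdgfrb, rose with LPS in each genotype. The summed stromal level, as log2, was 11.65 to 13.27 with LPS and 10.03 to 13.05 without in ΔTrspM BMDMs, and 12.11 to 12.30 with LPS and 9.06 to 12.92 without in controls, and the part of these cell types in the LPS results was not tested. Tnf, Il1b, Cxcl1, Cxcl2, Il6 and Nos2 rose with LPS in both genotypes. Every member was above a signal of 16 on all 12 arrays with the probe set used. In a bulk culture, fewer cells of a type and less RNA per cell cannot be told apart.

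The response to LPS was examined first, in each genotype. In ΔTrspM BMDMs, Cebpd, Spi1 and Cebpb rose and Cebpa fell, so that 4 of the 9 members passed an adjusted p of 0.05 (limma, Benjamini-Hochberg over all genes). The background was 15.8% of all genes, with 7.29% higher and 8.51% lower. In control BMDMs, Cebpd and Cebpb rose and Cebpa fell, which made 3 of 9 against a background of 15.6% (7.09% higher and 8.54% lower). The median log2 fold change of the members was 0.22 in ΔTrspM and -0.22 in control BMDMs, against -0.03 and -0.05 over all genes. The arrays of stimulated and unstimulated cells did not overlap for 6 members in ΔTrspM (4 higher and 2 lower; 34.3% of all genes, 14.8% higher and 19.5% lower) and for 5 in control BMDMs (3 higher and 2 lower; 34.1%, 14.7% higher and 19.4% lower). Scaling mattered for these counts in ΔTrspM BMDMs: 3 members rose and 3 fell with each array centred on its median, and 1 rose and 3 fell with no scaling, where all genes split into 262 higher and 3063 lower, against 1326 higher and 1548 lower as given here and 1303 higher and 2648 lower with centred arrays.

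**Figure D1:**
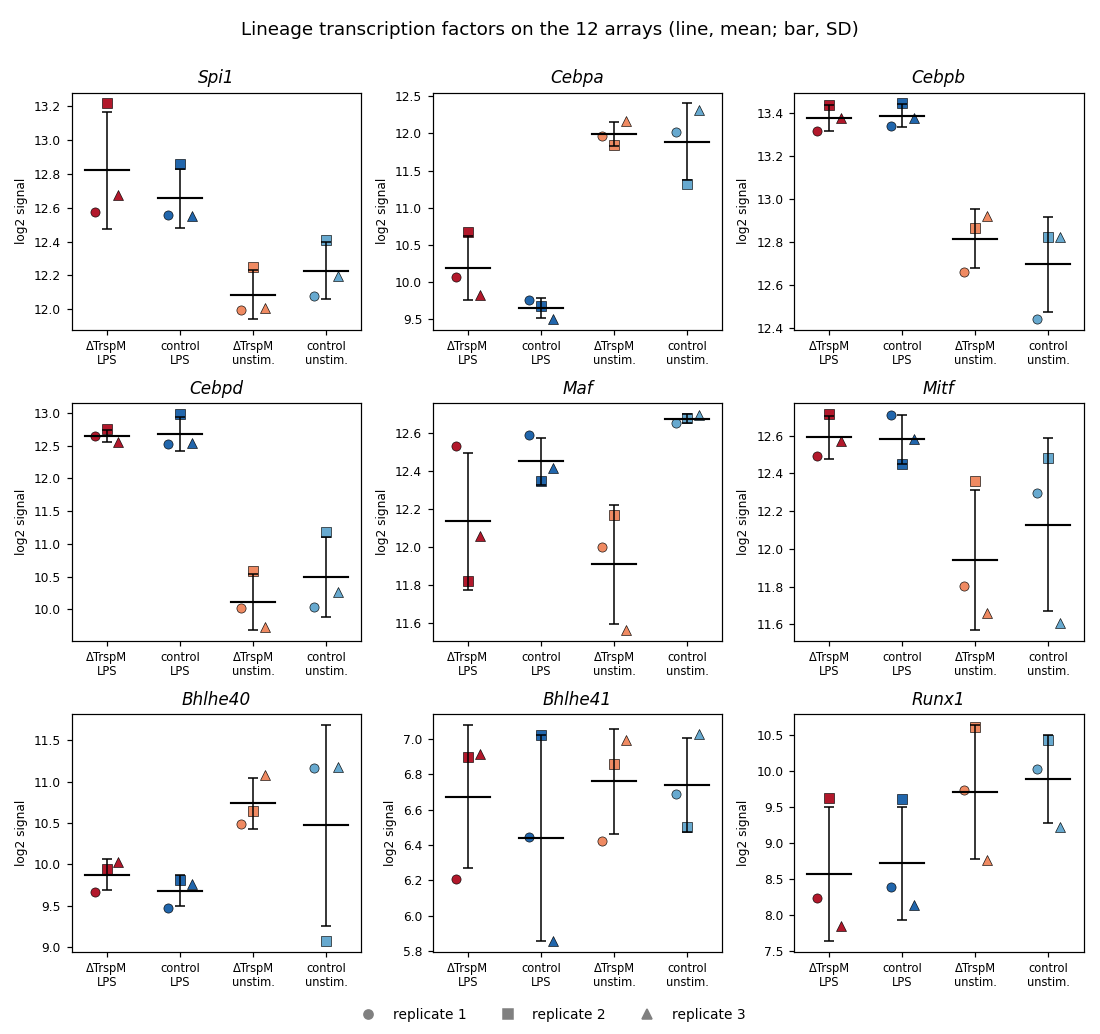
Log2 signal (vertical axis, a separate range in each panel) of the 9 factors on the 12 arrays, with points by replicate number, the group mean as a line and the SD as a bar (n = 3). Stimulated arrays of Cebpd lie between 12.52 and 12.98 and unstimulated ones between 9.74 and 11.18, while those of Cebpa run the other way.

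Among the members, Cebpd had the largest rise in both genotypes. Cebpd, whose product sustains the transcription of inflammatory genes after toll-like receptor signals, had signals of 12.64, 12.75 and 12.56 in LPS-stimulated and 10.02, 10.59 and 9.74 in unstimulated ΔTrspM BMDMs. Control BMDMs gave 12.52, 12.98 and 12.54 with LPS and 10.03, 11.18 and 10.26 without. All stimulated arrays were thus above all unstimulated ones. The rise was 2.54 ± 0.31 in ΔTrspM (SE; 5.80-fold, limma adjusted p = 0.000363) and 2.19 ± 0.31 in control BMDMs (4.56-fold, adjusted p = 0.000842). The other probe set of Cebpd, 1456605_at, read 6.54, 8.21 and 7.10 with LPS and 6.15, 6.44 and 6.76 without in ΔTrspM, where the groups overlapped and the difference of 0.83 did not pass, and it rose by 1.56 in control BMDMs (adjusted p = 0.0243 over all probe sets).

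Cebpb encodes the C/EBP protein that many acute-phase and cytokine genes use. Its main probe set read 13.32, 13.44 and 13.38 in LPS-stimulated ΔTrspM BMDMs, against 12.66, 12.86 and 12.92 without LPS. In control BMDMs the signals were 13.34, 13.44 and 13.37 with LPS and 12.44, 12.82 and 12.82 without. Stimulated arrays lay above unstimulated ones in both genotypes, by 0.56 ± 0.17 in ΔTrspM (limma adjusted p = 0.0495) and 0.69 ± 0.17 in control BMDMs (adjusted p = 0.0198). The second probe set, 1427844_a_at, read 12.44, 13.06 and 12.34 with LPS against 10.89, 11.01 and 11.26 without in ΔTrspM, and 12.39, 12.68 and 12.43 with LPS against 10.64, 11.48 and 10.98 without in control BMDMs. Its rise was 1.56 (adjusted p = 0.00324) and 1.47 (adjusted p = 0.00424) over all probe sets. For the main probe set the call in ΔTrspM was lost when any 1 of 11 of the 12 arrays was left out, with adjusted p up to 0.184, all arrays except replicate 1 of unstimulated control BMDMs. The call in control BMDMs was lost without replicate 2 of the stimulated or replicate 1 of the unstimulated control arrays (adjusted p = 0.059 and 0.0865).

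Cebpa moved the opposite way. C/EBPα drives granulocyte and monocyte progenitors out of the cell cycle, and its gene had signals of 10.07, 10.67 and 9.82 in LPS-stimulated ΔTrspM BMDMs, against 11.97, 11.85 and 12.16 in unstimulated ones. The control arrays read 9.76, 9.68 and 9.50 with LPS and 12.03, 11.31 and 12.32 without. No stimulated array reached the lowest unstimulated one. Cebpa fell to 0.286 of its unstimulated level in ΔTrspM (-1.80 ± 0.29, limma adjusted p = 0.00175) and to 0.212 in control BMDMs (-2.24 ± 0.29, adjusted p = 0.000413). Both calls held in each of the 25 alternatives computed, with adjusted p up to 0.0424 in ΔTrspM and 0.048 in control BMDMs.

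Spi1 rose in the stimulated ΔTrspM arrays. Signals were 12.57, 13.21 and 12.67 with LPS and 12.00, 12.25 and 12.01 without in ΔTrspM BMDMs, and 12.56, 12.86 and 12.55 with LPS and 12.08, 12.41 and 12.20 without in control BMDMs. The groups were separate in both genotypes, but the difference passed only in ΔTrspM (0.73 ± 0.21, 1.66-fold, limma adjusted p = 0.0381), against 0.43 ± 0.21 in control BMDMs (adjusted p = 0.218). The difference between these responses was 0.31 ± 0.30 (interaction, adjusted p = 1), so they are not shown to differ. With no scaling the rise in ΔTrspM was 0.18 (adjusted p = 0.82), and the call was also lost with only the compared groups in the fit (adjusted p = 0.0993) and by the methods' t-test after adjustment. Replicate 2 was the highest array for Spi1 in all 4 groups, as it was for Cebpd and Runx1. Without replicate 2 of LPS-stimulated ΔTrspM BMDMs, the array with the low overall signal, the rise was 0.54 (adjusted p = 0.121), and the call was also lost without replicate 3 of that group, each replicate of unstimulated ΔTrspM BMDMs, replicate 1 of the stimulated controls, or replicates 1 and 3 of the unstimulated controls (8 arrays in all, adjusted p = 0.0517 to 0.126).

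Runx1 was lower after LPS in every same-numbered pair, 3 of 3 in each genotype, although the groups overlapped. Its main probe set read 8.23, 9.62 and 7.84 with LPS against 9.74, 10.61 and 8.76 without in ΔTrspM BMDMs, and 8.38, 9.61 and 8.14 with LPS against 10.02, 10.42 and 9.22 without in control BMDMs. The arrays numbered 2 were high and those numbered 3 low in each group. The differences were -1.14 ± 0.59 in ΔTrspM (limma adjusted p = 0.24) and -1.18 ± 0.59 in control BMDMs (adjusted p = 0.223). With the replicate number as a block, which takes up the shared shift of same-numbered cultures, both passed (adjusted p = 0.00593 and 0.0049). Over all 18193 genes the block raised the calls from 2874 to 4086 in ΔTrspM and from 2844 to 4108 in control BMDMs. In ΔTrspM the difference also passed without the block when arrays were centred on their medians (-1.71, adjusted p = 0.0301) or left unscaled (-2.41, adjusted p = 0.0037), and it was -1.66 without the array of low overall signal (adjusted p = 0.102). Of the 6 probe sets of Runx1, 1440878_at passed without the block or another scaling, with -1.97 in ΔTrspM (adjusted p = 0.0148) and -1.89 in control BMDMs (adjusted p = 0.0173). It read 7.05, 6.85 and 5.94 with LPS against 8.16, 8.94 and 8.65 without in ΔTrspM BMDMs. The other 5 did not pass, and over all 6 the differences ran from -1.97 to 0.28 in ΔTrspM and from -1.89 to -0.09 in control BMDMs. Which transcripts each probe set reads was not examined.

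The E-box repressor Bhlhe40 had lower means after LPS. ΔTrspM BMDMs gave 9.66, 9.94 and 10.03 with LPS and 10.49, 10.64 and 11.09 without, with no overlap. Control BMDMs gave 9.47, 9.81 and 9.77 with LPS and 11.16, 9.07 and 11.18 without, and here replicate 2 of the unstimulated arrays lay below all the stimulated ones. The differences of -0.86 ± 0.47 and -0.79 ± 0.47 did not pass (limma adjusted p = 0.261 and 0.306), but that in ΔTrspM did when arrays were centred (-1.35, adjusted p = 0.0287) or left unscaled (-2.05, adjusted p = 0.026). Without that control array, both passed, at -0.86 in ΔTrspM (adjusted p = 0.0214) and -1.49 in control BMDMs (adjusted p = 0.00225). The first keeps its size because the array enters it only through the pooled spread.

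Bhlhe41 was read near the lower end of the scale. Its main probe set ranged from 5.86 to 7.03 over the 12 arrays, and the LPS differences were -0.09 ± 0.32 in ΔTrspM and -0.30 ± 0.32 in control BMDMs. The second probe set, 1457096_at, read 4.33, 4.43 and 4.72 with LPS and 5.17, 5.66 and 5.81 without in ΔTrspM BMDMs, a fall of 1.05 (adjusted p = 0.0347 over all probe sets). It had a signal under 16 on 8 of the 12 arrays, close to the lowest value the scale allows.

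Mitf signals were 12.49, 12.71 and 12.57 with LPS and 11.80, 12.36 and 11.66 without in ΔTrspM BMDMs, and 12.71, 12.45 and 12.58 with LPS and 12.29, 12.48 and 11.61 without in control BMDMs. The groups were separate in ΔTrspM and overlapped in controls, and neither difference passed (0.65 ± 0.26, limma adjusted p = 0.12, and 0.45 ± 0.26, adjusted p = 0.286). The other probe set, 1422025_at, read 8.97, 10.40 and 10.19 with LPS and 7.75, 9.20 and 7.78 without in ΔTrspM, a rise of 1.61 (adjusted p = 0.0477 over all probe sets), and differed by 1.04 in control BMDMs, which did not pass. Taken as the mean of its probe sets, Mitf rose by 1.13 in ΔTrspM (adjusted p = 0.0423).

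Maf showed no called response to LPS. The signals were 12.53, 11.82 and 12.05 with LPS and 12.00, 12.16 and 11.56 without in ΔTrspM BMDMs, against 12.59, 12.35 and 12.41 with LPS and 12.65, 12.68 and 12.69 without in controls. The differences were 0.22 ± 0.22 (limma adjusted p = 0.575) and -0.22 ± 0.22 (adjusted p = 0.574). Their signs changed with scaling, to -0.63 in ΔTrspM with no scaling and to 0.08 in control BMDMs with each array centred on its median. Without the array of low overall signal the difference in ΔTrspM was 0.38 (adjusted p = 0.357). Over the 6 probe sets of Maf the LPS differences ran from -0.39 to 0.75 in ΔTrspM and from -1.25 to 0.41 in control BMDMs. None of them passed. In controls 5 of the 6 were below 0, and for 3 of these, the main probe set among them, the arrays did not overlap. In ΔTrspM 4 were above 0, and 1 of these had separate arrays. The share of all probe sets with separate arrays was not counted.

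**Figure D2:**
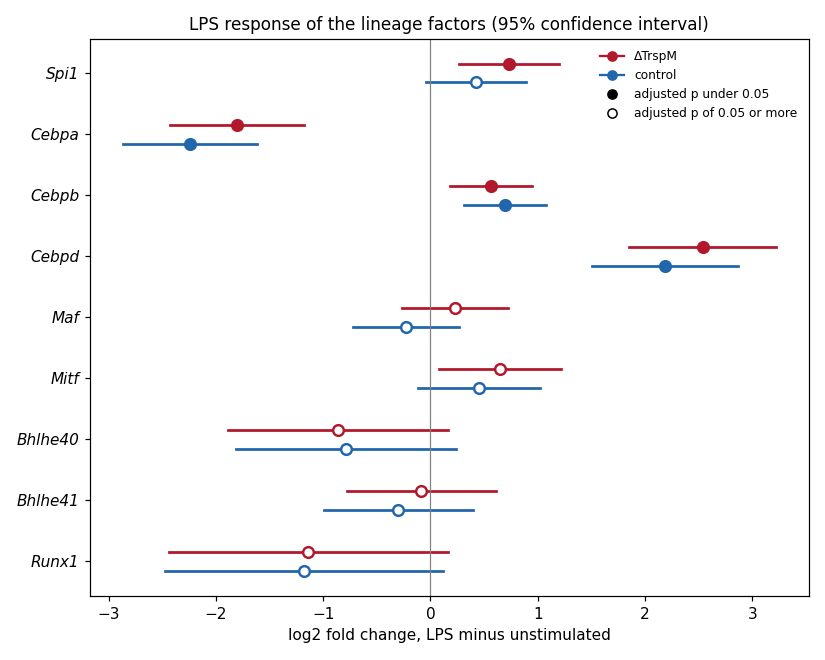
Log2 fold change with LPS (horizontal axis, stimulated minus unstimulated) of the 9 factors, with 95% confidence intervals from limma, red for ΔTrspM and blue for control BMDMs, filled where the adjusted p was under 0.05. The intervals of the genotypes overlap for each factor, and the means lie on the same side of 0 for 8 of the 9, all but Maf.

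**Figure D3:**
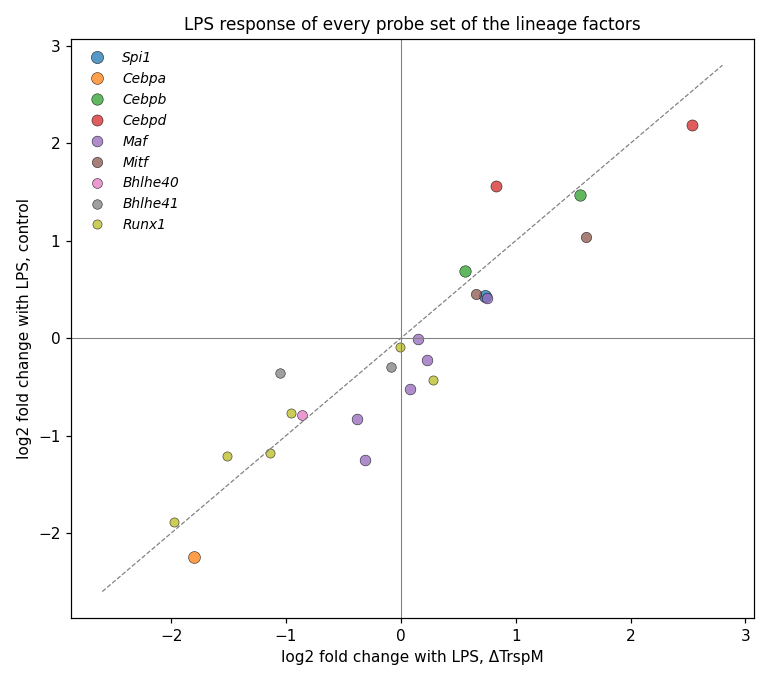
Log2 fold change with LPS in ΔTrspM BMDMs (horizontal axis) and in control BMDMs (vertical axis) for each of the 23 probe sets, coloured by gene, with equal values on the dashed line. The probe sets of Cebpb, Cebpd, Mitf and Spi1 lie above 0 in both genotypes, those of Cebpa, Bhlhe40 and Bhlhe41 below 0, and those of Maf on both sides. Those of Runx1 lie below 0 in control BMDMs and on both sides in ΔTrspM BMDMs.

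The genotypes were compared next, which asks whether loss of Trsp went with a different level of any factor. None of the 9 members passed in LPS-stimulated cells, where 2 of all genes did (0.011%), or in unstimulated cells, where none did (0%), by limma. At an unadjusted p under 0.05 there were 0 members after LPS (5.78% of all genes) and 1 in unstimulated cells, Maf (2.39%). ΔTrspM and control arrays did not overlap for 1 member after LPS, Cebpa, which was higher (9.14% of all genes, 5.37% higher and 3.77% lower), and for 1 in unstimulated cells, Maf, which was lower (7.32%, 4.16% higher and 3.17% lower). The median log2 fold change of the members was 0.01 after LPS and -0.14 unstimulated, against 0.04 for all genes in each.

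Maf was lower in unstimulated ΔTrspM BMDMs than in controls on all arrays. The ΔTrspM signals of 12.00, 12.16 and 11.56 (11.91 ± 0.31, SD) stood against control signals of 12.65, 12.68 and 12.69 (12.67 ± 0.02). The difference was -0.76 ± 0.22, with a 95% confidence interval of -1.26 to -0.27 and 3 of 3 same-numbered pairs lower, but it did not pass. Its adjusted p in limma was 0.9999. Over all alternatives it stayed between -0.89 and -0.59 with adjusted p of 0.88 or more. Each of the 6 probe sets of Maf had a lower mean in unstimulated ΔTrspM BMDMs, with differences of -0.88 to -0.52. For 4 of them the arrays did not overlap, and the share of all probe sets for which this held was not counted. Probe sets of 1 gene on the same arrays are not independent measurements.

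**Figure D4:**
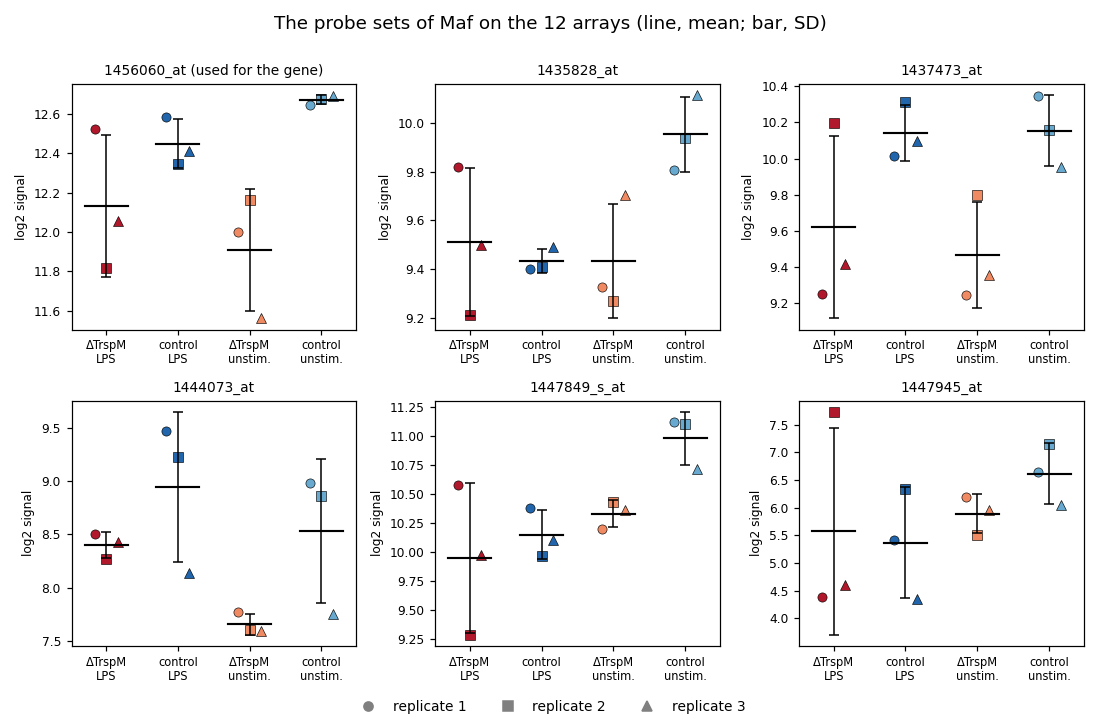
Log2 signal of the 6 Maf probe sets on the 12 arrays (vertical axis, a separate range in each panel), with points by replicate number, the group mean as a line and the SD as a bar (n = 3). In unstimulated cells the ΔTrspM mean lies below the control mean in every panel, and probe set 1447945_at falls close to the lowest value of the scale on some arrays.

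After LPS the Maf arrays overlapped, with 12.53, 11.82 and 12.05 in ΔTrspM and 12.59, 12.35 and 12.41 in control BMDMs. The difference was -0.32 ± 0.22 (limma adjusted p = 0.944), -0.16 without the array of low overall signal, -0.70 with centred arrays and -1.21 with no scaling. Of the 6 probe sets 4 had the lower mean in ΔTrspM (-0.54 to 0.21). The change of the genotype difference with LPS was 0.45 ± 0.32 (adjusted p = 1), and it was -0.01 with centred arrays and -0.42 with no scaling, so that its direction rests on the normalization. Cd163, the haemoglobin scavenger receptor, was lower in ΔTrspM on all arrays under both stimuli, with means of 5.57 in ΔTrspM and 6.29 in controls after LPS, and 6.43 in ΔTrspM and 7.12 in controls unstimulated. These Cd163 means lie near the lower end of the scale. The Cd163 differences of -0.72 and -0.69 did not pass (limma adjusted p = 0.716 and 0.9999), and Cd163, Stab1 and Il10 were picked out after their values were seen. Stab1, another MAF target, had separate arrays in opposite directions, with means of 11.53 in ΔTrspM and 11.38 in controls after LPS, and 11.84 in ΔTrspM and 12.22 in controls unstimulated. Il10, a gene that MAF activates, differed by -0.36 after LPS and 0.21 unstimulated, with overlapping arrays.

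Cebpa signals after LPS were 10.07, 10.67 and 9.82 in ΔTrspM BMDMs, against 9.76, 9.68 and 9.50 in controls. All ΔTrspM arrays were higher, by 0.54 ± 0.29 on average (95% confidence interval -0.08 to 1.17, limma adjusted p = 0.893). The sign depends on scaling, with 0.12 for centred arrays and -0.39 with no scaling, and the value was 0.30 without the array of low overall signal, which is the highest of the ΔTrspM arrays. In unstimulated cells the difference was 0.11 ± 0.29, with overlapping arrays. The actin ratio was higher in ΔTrspM in every pair, while the Gapdh ratio was not. The part of RNA quality in the Maf and Cebpa differences was not tested.

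For the other members the intervals of the genotype difference show how precisely it was measured. Cebpb was the most tightly measured, at -0.01 after LPS (95% confidence interval -0.39 to 0.37) and 0.12 unstimulated (-0.26 to 0.50). Runx1 was the least tightly measured in this fit, at -0.15 after LPS (-1.44 to 1.15) and -0.18 unstimulated (-1.48 to 1.11). These Runx1 intervals include the shift shared by same-numbered arrays. Adding the block lowered the standard error of Runx1 from 0.59 to 0.22. Bhlhe40 then had the largest, 0.44, and Cebpb still the smallest, 0.15. Without the array of low overall signal Runx1 differed by -0.67 after LPS. Its interaction was 0.04 with that array and -0.49 without it. Spi1 differed by 0.16 after LPS (-0.30 to 0.63; -0.03 without that array, and -0.49 with no scaling) and -0.14 unstimulated (-0.61 to 0.32), and Cebpd by -0.03 (-0.71 to 0.65) and -0.38 (-1.06 to 0.30). The main probe sets of Mitf, Bhlhe40 and Bhlhe41 had means within 0.27 of 0 under each stimulus. The second probe set of Mitf differed by -0.81 in unstimulated cells, lower in 3 of 3 pairs, and that of Bhlhe41, near the lowest value of the scale, by 0.66, higher in 3 of 3 pairs. Neither passed, and the arrays overlapped in both. For Cebpd the second probe set differed by 0.49 in unstimulated cells, opposite in sign to the main one, and by -0.24 after LPS, with overlapping arrays. Over the 6 probe sets of Runx1 the differences ran from -0.63 to 0.55 after LPS and from -0.32 to 0.09 unstimulated. None of these passed, and only 1422865_at had separate arrays, lower in unstimulated ΔTrspM BMDMs. Bhlhe40 in unstimulated cells ranged from -0.43, without replicate 2 of the controls, to 0.62, without replicate 3 of the controls. The 95% confidence intervals hold the differences compatible with 3 arrays a group. They are not limits of detection, since a call also needed adjustment over all genes. None of the 9 members passed the test of a genotype by LPS interaction (0% of all genes), and none did so at an unadjusted p under 0.05 (3.05%).

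**Figure D5:**
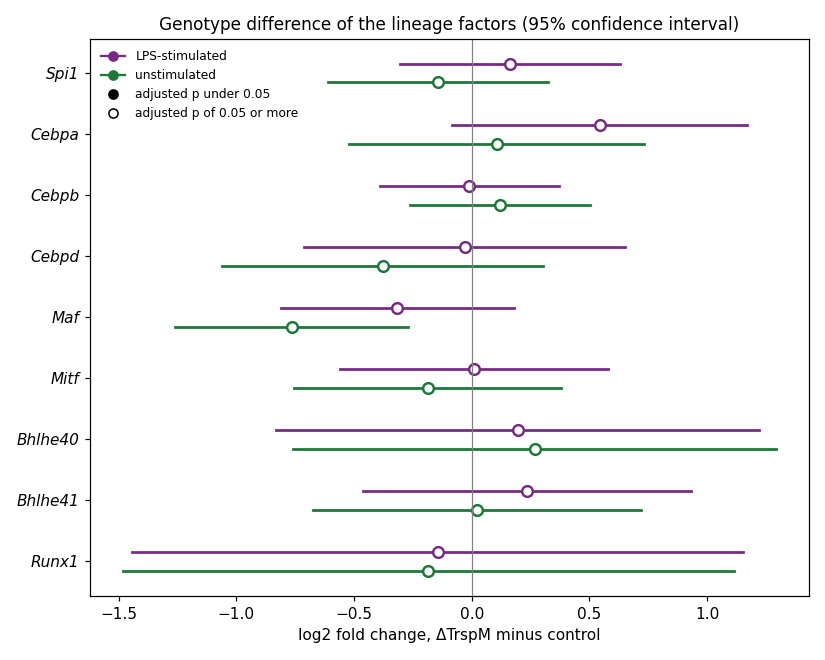
Log2 fold change between the genotypes (horizontal axis, ΔTrspM minus control) of the 9 factors, with 95% confidence intervals from limma, purple after LPS and green unstimulated, filled where the adjusted p was under 0.05, which none was. The interval of Maf in unstimulated cells, -1.26 to -0.27, is the only 1 that does not include 0.

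Relatives and partners of the factors were read from 7 lists, and targets from 5, with 113 genes measured in all. In ΔTrspM BMDMs 26 of them rose and 15 fell with LPS (7.29% and 8.51% of all genes). In controls 25 rose and 15 fell (7.09% and 8.54%). These percentages are also the background of the LPS counts of each list below. Of the 113, 37 were called the same way in both genotypes, and the share of all genes called so was not counted. None of the 113 was called between the genotypes or for the interaction. At an unadjusted p under 0.05 there were 5 of the 113 after LPS (5.78% of all genes), 7 in unstimulated cells (2.39%) and 2 for the interaction (3.05%).

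Of 12 ETS relatives of PU.1, 3 rose and 3 fell in each genotype (median 0.47 in ΔTrspM and 0.22 in control BMDMs). Spic, which specifies red pulp macrophages, rose by 2.76 in ΔTrspM and 2.70 in controls (limma adjusted p = 0.00346 and 0.00366). Ets2, an effector of growth factor signalling, rose by 1.51 and 1.32. Fli1, a factor of megakaryocytes and endothelium, fell in both (-2.20 in ΔTrspM and -1.82 in controls, adjusted p = 0.00152 and 0.00416). Elf2 and Elk3 fell in both genotypes, and Etv6 rose in both (1.05 in ΔTrspM, where it was -0.08 with no scaling, and 0.99 in controls). The ETS family thus held members on both sides of 0.

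The C/EBP list of 6 measured relatives and partners had 2 that rose in each genotype and none that fell. They were Batf, a basic leucine zipper partner (2.89 in ΔTrspM and 2.81 in controls, limma adjusted p = 8.69e-06 and 9.99e-06), and Nfil3, a repressor of the same class (2.29 and 2.98). Among 7 MAF relatives and partners, the small MAF genes Maff (2.40 in ΔTrspM and 2.69 in controls) and Mafk (1.65 and 1.37) rose, and Bach1, a haem-sensing repressor that pairs with small MAF proteins, fell (-1.57 in ΔTrspM and -1.47 in controls). Of the 3 MiT/TFE relatives of MITF, Tfec, which is largely restricted to macrophages, rose by 3.07 in ΔTrspM and 3.28 in controls (adjusted p = 0.000475 and 0.000278). Tfeb, a regulator of lysosome formation, fell in both (-1.67 in ΔTrspM and -1.63 in controls, adjusted p = 0.00124 and 0.00131). Tfec and Tfeb, of the same family, moved in opposite directions in the same cells.

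Of 12 helix-loop-helix relatives and ID proteins, Tcf4 rose (1.10 in ΔTrspM, where it was -0.05 with no scaling, and 1.07 in controls) and Id1 and Tcf12 fell in both genotypes. Id1, an inhibitor that has no DNA-binding region, had the values -2.45 in ΔTrspM and -2.68 in controls (limma adjusted p = 0.00522 and 0.003). Id3 fell in controls (-1.76, adjusted p = 0.0331). Of 5 RUNX relatives and partners, Cbfb, the shared partner of all RUNX proteins, fell in both (-0.69 in ΔTrspM and -0.70 in controls, adjusted p = 0.0181 and 0.0166). Runx3 passed in ΔTrspM (-2.14, adjusted p = 0.00888) and the corepressor gene Cbfa2t3 in controls (1.51, adjusted p = 0.017), and the interaction passed for neither. Among 16 other haematopoietic factors, Gfi1, a repressor protein needed for neutrophil development, rose by 5.13 in ΔTrspM and 5.95 in controls, Ikzf1 rose, and Klf4, Lmo2 and Pparg fell in both. Pparg, the nuclear receptor of alveolar macrophages, had the values -2.50 in ΔTrspM and -2.58 in controls (adjusted p = 0.00403 and 0.00323).

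Targets linked to the factors differed in their counts. Of 14 genes linked to C/EBP proteins, 10 rose in each genotype and none fell, with a median of 3.79 in ΔTrspM and 3.99 in controls. Il6 rose by 8.22 in ΔTrspM and 7.38 in controls, Il1b by 6.55 and 5.22, Saa3, an acute-phase protein, by 5.97 and 5.26, Ptgs2, the inducible cyclooxygenase, by 4.26 and 5.16, Lcn2, an iron-trapping lipocalin, by 3.88 and 3.95, and Csf3, the granulocyte growth factor, by 3.85 and 4.52. Many genes of this list are themselves known LPS-induced genes, and it was put together with results of these arrays known. Of 14 genes linked to PU.1 and RUNX1, Cd14 (0.74, limma adjusted p = 0.0377) and Cybb (0.64, adjusted p = 0.0387) rose in ΔTrspM and none passed in controls. Cd14 differed by 0.63 in controls (adjusted p = 0.0704), with an interaction of 0.11. The interaction passed for neither gene, so their responses are not shown to differ between the genotypes. The median of this list was -0.18 in ΔTrspM and -0.13 in controls.

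Il10, the interleukin gene that MAF activates, rose by 3.05 in ΔTrspM and 3.62 in controls (limma adjusted p = 0.00701 and 0.00251). Cd163, read near the lower end of the scale, fell (-0.86 in ΔTrspM and -0.83 in controls), and Stab1, another scavenger receptor, fell in controls (-0.83, adjusted p = 0.00637). Clcn7, the chloride-proton exchanger of lysosomes, rose by 1.84 and 2.01, and Acp5, the tartrate-resistant phosphatase and an osteoclast marker, by 1.46 and 1.56, among 12 genes linked to MITF and TFE proteins. Of these 12, 2 were called higher in each genotype and none lower. The median of this list was 0.02 in ΔTrspM and 0.07 in controls. Of 5 genes linked to BHLHE40 and BHLHE41, Il10 rose as above and the clock gene Per2 fell (-1.31 in ΔTrspM and -1.68 in controls, adjusted p = 0.0102 and 0.0024). Dbp, a clock output gene, fell by 1.85 in ΔTrspM (adjusted p = 0.00375).

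The genes whose signals followed each factor most closely were ranked by Pearson correlation over the 12 arrays, among 11626 other genes whose mean log2 signal was 6 or more. These are descriptions, since the arrays share the LPS groups and replicate numbers. Cebpd was followed by Fas (0.992), Peli1 (0.992) and Zup1 (0.991), Cebpb by Plcb3 (0.987), Tmem184b (0.984) and Nrp2 (0.981), and Cebpa by Neurl1b (0.983), Rap2a (0.980) and Thbd (0.980). Runx1 had Ubl3 (0.975), Scaf8 (0.964) and Airn (0.955), and Spi1 had S100a5 (0.964), Slpi (0.964) and Polr3d (0.963). Mitf had Aftph (0.932), Ankrd66 (0.930) and Slfn5 (0.930), and Bhlhe40 had Id2 (0.922), 1110059G10Rik (0.909) and Map1lc3b (0.909). The lowest were those of Maf, with E230029C05Rik (0.862), Ncf4 (0.821) and Ccr3 (0.820), and of Bhlhe41, with Zfp784 (0.858), Gabarap (0.804) and Wfdc15b (0.792).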

How the data were processed

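Total RNA of 12 BMDM cultures (4 groups of 3) was hybridized by the authors to GeneChip Mouse 430 2.0 arrays and normalized in Expression Console. The 45101 deposited values of each array are intensities on a linear scale, and how probes were summarized is not stated. Samples were grouped as the labels give them, and 0 columns of sample values were left unused. Probe sets of controls (64), with several symbols (932) or with none (9160) were left out of the gene tests. Quantile normalization ran over all 45037 non-control probe sets, and log2 was taken after adding 16; the probe set with the highest mean stands for a gene, which gave 18193 genes.

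The test was that of limma 3.58.1 (R 4.3.3), fitted once over all 4 groups (8 residual degrees of freedom), with Benjamini-Hochberg adjustment over all genes and a threshold of 0.05. With 3 arrays on each side the smallest exact two-sided p is 0.1. The labels do not say which animals the cultures came from, so p-values measure the spread between these cultures. The scripts were tested on simulated data. The number of arrays limits the precision. Genes named are the members, up to 6 genes of each list by smallest p over the LPS comparisons, the LPS and cell type markers, and the 3 genes closest to each member. The members and lists were chosen with earlier results of these data known. With group means removed, the 12 pairs of arrays that share a number and are compared had correlations between 0.126 and 0.442 (0.1 required), and all 12 arrays correlated best with their own number, so the numbers were taken to pair the cultures, and the fit with the number as a block is given where it changes a call. Alternatives were other scalings, added constants, filters, probe set rules, variance models, the methods' t-test, and each array left out. Some genes of the lists and the selenocysteine tRNA gene were not analysed here. The counts of 1 list of targets are not reported here.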

Additional observations from a re-analysis of the deposited data

Results flagged for a closer look

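Spi1 was flagged because its genotype difference ran in opposite directions under the 2 stimuli in every same-numbered pair. ΔTrspM was higher than control in 3 of 3 pairs after LPS, by as little as 0.01. It was lower in 3 of 3 pairs in unstimulated cells. The share of all genes with this pattern of pairs was not counted, so the pattern is not shown to be particular to Spi1. The mean differences were 0.16 after LPS and -0.14 unstimulated, and their difference was 0.306 with a standard error of 0.30 (limma adjusted p = 1), so it did not pass the test. It was 0.11 without replicate 2 of LPS-stimulated ΔTrspM BMDMs and -0.28 with no scaling. The same pattern of pairs was seen in 3 of the target genes. Stab1, linked to MAF, differed by 0.14 after LPS and -0.37 unstimulated, a change of 0.519 (adjusted p = 1; -0.36 with no scaling). Ptgs2 and Nos2, linked to C/EBP proteins, were lower in ΔTrspM after LPS (-0.07 and -0.96) and higher unstimulated (0.84 and 0.08), with changes of -0.906 and -1.03 that did not pass (limma adjusted p = 1 for each). The unstimulated Nos2 means, 4.46 in ΔTrspM and 4.38 in controls, lie close to 4, the lowest value of the scale. After LPS the Nos2 pairs differed by -2.70, -0.15 and -0.02, so that the mean rests mostly on replicate 1.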

How the results depend on the processing

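In ΔTrspM BMDMs, the 3 members that rose with LPS became 1 with no scaling, with only the compared groups in the fit, or with the replicate block after the 4 arrays numbered 2 were left out, an alternative chosen after seeing the data. The 1 that fell became 3 with centred arrays, 3 with no scaling, 2 with the replicate block and 3 with the block and no arrays numbered 2. In control BMDMs, the 2 that rose became 1 with no scaling, 1 with only the compared groups, 0 by the methods' t-test after adjustment and 1 with the block and no arrays numbered 2, and the 1 that fell became 2 with the replicate block and 3 with the block and no arrays numbered 2. Leaving out 1 array gave 1 to 2 members higher and 1 to 2 lower in ΔTrspM, and 1 to 2 higher and 1 to 2 lower in controls. The added member under the block was Runx1, and the block changed no other call of a member. No member was called between the genotypes or for the interaction under any alternative. With no scaling, Etv6 and Tcf4 reversed in ΔTrspM, to -0.0751 and -0.0469, where the median of all genes moved to -0.73. Of 10945 other values under the alternatives, for single genes and for counts of the lists, 10368 kept their call or count, 277 lost the threshold, 114 gained it, 184 were list counts that moved by over 1.5 times, and 2 reversed. The cause of these changes was not tested.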
